A study of Mus musculus with 6 samples.

Results

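The 3 libraries labelled si-Control were described on their own: which genes they held, in what order of abundance, which regulators of cell lineage were present or absent, and how far the replicates lay apart. They were chosen by their labels, as the 3 of the 6 libraries in the series that carried a scrambled siRNA, with no use of measured values, and no comparison with the other group was made. By the labels, each came from heart muscle cells of 1-day-old C57BL/6J mice (C57BL/6 in the strain field), enriched to over 97.5% cells stained for cardiac troponin T, transfected in primary culture and kept for 48 h. They are labelled as biological replicates, and neither separate isolations nor the number of pups pooled is stated, so the spread given here is between these samples and may be technical.

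A heart muscle cell is known by a contractile apparatus of its own, with cardiac myosin chains, cardiac troponins and natriuretic peptides, under transcription factors such as Nkx2-5, Gata4, Tbx5, Tbx20 and Mef2c. Skeletal muscle forms by another route: Pax and other homeobox proteins act upstream of the myogenic regulatory factors Myf5, Myod1, Myog and Myf6, which bind E-boxes in muscle genes, and dividing precursors leave the cycle and fuse before the contractile genes reach their full level. In trunk and limb cells the Hox genes also keep a record of position along the body and limb axes.

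The data went against the label. The RNA held Myod1 and Myog, the fetal form of the muscle acetylcholine receptor, and posterior genes of the Hoxa and Hoxc clusters. It held matrix genes at very high levels, and many of the transcripts that define cardiac contraction were at or near 0. The picture was mixed: Nkx2-5, Gata4, Tnnt2 and Ttn reached 1 CPM in all 3 libraries, and Pax3, Pax7 and Myf6 did not. As a share of reads with no length correction, skeletal contractile genes held 0.0436% and cardiac ones 0.0413%. Of 30 genes of cardiac contraction and calcium handling, 10 reached 1 CPM (reads scaled to 1000000 per library) in all 3 libraries. Another 10 had no read at all, among them Myl2, Myl3, Myl7, Nppa, Nppb, Mybpc3 and Pln. Over all 18951 rows, 61.8% reached 1 CPM in all 3 and 2390 had no read. The libraries are therefore named by their label only, and no cell type is assigned to them. In RNA from a whole culture, fewer cells of a type and less RNA per cell cannot be told apart.

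Levels of different genes are compared here as TPM, for which reads are divided by the length of the gene's merged exons and each library is then scaled to a sum of 1000000. The libraries held 35955301, 35941050 and 34269042 reads in gene rows, on 15465, 15366 and 15396 genes. A gene with 0 reads in all 3 could still have a level of up to 0.0283 CPM, the value of 3 reads over the pooled total; this floor covers counting error only, because copies made by PCR were not told apart. At least 1 CPM in all 3 libraries was found for 11712 of 18951 rows (61.8%), of which 11434 were protein-coding. No read in any of the 3 was found for 2390 rows, which have a row only through reads in the other group. The counts of list members below stand against these shares of all rows. The median level over those 11712 genes was 27.8 TPM. Rbm22, the target of the siRNA in the other group, had 798, 916 and 774 reads here, or 15.7 ± 1.35 TPM (SD, n = 3).

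Sequences are shown for the receptor promoters and the microRNA that the values below refer to. The first pair are stretches upstream of the RefSeq start of 2 receptor subunit genes (GRCm38), Chrna1 at chr2:73580339-73580588 and Chrne at chr11:70619217-70619444, both given 5′ to 3′ on the minus strand, on which both genes lie. Capitals mark the E-boxes CAGCTG and CACCTG, searched on both strands, so that CACCTG on the opposite strand reads CAGGTG.
Chrna1: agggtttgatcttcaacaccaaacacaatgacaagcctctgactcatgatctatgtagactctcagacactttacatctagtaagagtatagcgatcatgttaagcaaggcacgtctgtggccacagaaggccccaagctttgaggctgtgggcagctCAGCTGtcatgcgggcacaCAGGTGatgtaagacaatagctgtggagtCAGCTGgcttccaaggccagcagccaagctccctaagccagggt
Chrne: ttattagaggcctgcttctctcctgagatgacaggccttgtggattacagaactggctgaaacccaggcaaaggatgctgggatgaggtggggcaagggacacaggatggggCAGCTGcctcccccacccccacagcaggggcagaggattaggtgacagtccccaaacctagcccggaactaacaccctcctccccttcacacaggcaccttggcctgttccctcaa
The Chrna1 stretch holds 3 matches, which begin 92, 73 and 44 bases before the RefSeq start. The Chrne stretch holds 1, which begins 138 bases before it. Over all 32851 RefSeq promoter windows of 300 bases, 32.9% held at least 1 such E-box, 7.37% at least 2 and 1.39% at least 3. These windows also hold bases after the start, and the stretches printed, of 250 and 228 bases, are shorter. The full windows of Chrna1 and Chrne held 3 and 1 matches. A match is a description of the letters and not evidence of binding.

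The second set is the pair of mature microRNAs cut from H19, the highest long non-coding RNA in these libraries. They lie on the minus strand at chr7:142577112-142577133 (5p) and chr7:142577078-142577099 (3p) in RefSeq on GRCm38, inside the H19 gene, and capitals mark the seed, bases 2 to 8.
mmu-miR-675-5p: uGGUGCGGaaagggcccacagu
mmu-miR-675-3p: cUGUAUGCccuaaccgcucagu
The seeds of the arms differ. The libraries measured H19 reads per gene and not the mature microRNAs.

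Of the myogenic regulatory factors, 3 of 4 reached 1 CPM in all 3 libraries. Myod1, the factor that can turn other cells to the muscle fate (ENSMUSG00000009471, chr7:46376474-46379099), was at 149, 153 and 127 TPM, from 2776, 2833 and 2279 reads, and held rank 1213 of the 18868 named genes. Replicate 3 was the lowest. Myog, which acts as precursors differentiate, was at 77.8, 88.7 and 95.3 TPM, lower than Myod1 in every library and with replicate 1 lowest. Myf5, an early factor of the same family, was lower still at 12.3 ± 0.849 TPM (SD, n = 3). Myf6, the late factor of mature fibres, had 4, 0 and 2 reads. Neither the Myog nor the Myf5 window held an E-box of the 2 kinds searched.

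The upstream regulators split, and 5 of 13 measured genes reached 1 CPM. Among them the transcriptional cofactor Eya4 was at 21.4, 22.3 and 20.8 TPM, the homeobox factor Six4 at 15.3 ± 0.909 TPM and the cofactor Eya1 at 7.94 ± 0.798 TPM. Eya4 was the highest of these in every library, and replicate 3 was the lowest library for each. The paired-box factors of muscle progenitors were near 0: Pax7, which marks satellite cells, had 3, 0 and 3 reads, and Pax3 had 0, 1 and 0. Meox2 and Eya2 had no reads, and Tcf15 had no row.

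Surface genes of muscle precursors were present throughout: 11 of 13 measured members reached 1 CPM. Cdh15, the M-cadherin that joins myoblasts (ENSMUSG00000031962, chr8:122847966-122867397), was at 109, 113 and 95.3 TPM, from 3539, 3636 and 2997 reads. Higher than it were Itga7, the laminin receptor subunit of muscle cells, at 199.7 ± 8.41 TPM, the heparan sulfate carrier Sdc4 at 188 ± 9.58 TPM and the adhesion molecule Ncam1 at 148 ± 7.42 TPM. Sdc3 followed at 57.3 ± 2.33 TPM. Heyl had 14, 17 and 21 reads and Chodl had 1 read in all.

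Of 14 fusion genes, 9 reached 1 CPM, a share near the 61.8% of all rows. Cdon, a receptor that promotes myogenesis, led at 175 ± 5.78 TPM, ahead of Myof, a ferlin of the cell membrane, at 100.2 ± 2.94 TPM, Kirrel at 95.2 ± 1.94 TPM, Neo1 at 54.1 ± 2.42 TPM and Jam2 at 52.4 ± 1.70 TPM. The muscle-specific membrane activators of fusion fell outside those 5, and were named after their values were seen. Mymk (myomaker) was at 47.4, 54.4 and 49.5 TPM. Mymx (myomixer) had 66, 102 and 134 reads, a wider spread, for its level, than that of Mymk. Nphs1 and Adgrb3 had no reads.

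The acetylcholine receptor of muscle has a fetal form, with the gamma subunit, and an adult form in which epsilon takes its place. Chrna1, the alpha subunit (ENSMUSG00000027107, chr2:73563215-73580338), was the highest gene of this list at 274, 277 and 283 TPM, from 12080, 12046 and 11993 reads, with a mean of 278 TPM and an SD of 4.26 TPM. The other members of the receptor and its scaffold were lower: the clustering protein Rapsn at 57.1 ± 5.29 TPM, the agrin receptor Lrp4 at 42.9 ± 3.43 TPM, the beta subunit Chrnb1 at 24.5 ± 0.534 TPM and the kinase Musk at 20.4 ± 0.431 TPM. Outside the 5 highest, and named after their values were seen, the fetal gamma subunit Chrng had 637, 718 and 609 reads (15.9 ± 1.27 TPM) and the delta subunit Chrnd 285, 284 and 298 reads (8.90 TPM on average).
The adult epsilon subunit Chrne had 0, 1 and 0 reads, and was the only 1 of the 11 members below 1 CPM. Its promoter stretch, printed above, holds an E-box as the Chrna1 stretch does. Of the 8 promoter windows found for this list, which include a pair for Dok7, 5 held an E-box, against 32.9% of all windows, which is given as a count with no test.

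The contractile genes of skeletal muscle were present at low to middle levels. Of 28, 22 reached 1 CPM and 1, Mybpc2, had no reads, and together they made up 856 ± 25.1 TPM (SD, n = 3). Acta1, skeletal alpha-actin, was at 289.6, 314 and 266 TPM. Next were Cacng1, a subunit of the muscle calcium channel, at 133 ± 7.96 TPM, the fast myosin light chain Mylpf at 127 ± 16.0 TPM, Actn3, the alpha-actinin of fast fibres, at 81.7 ± 2.40 TPM, and slow troponin T, Tnnt1, at 38.7 ± 1.11 TPM. The myosin heavy chains, outside the 5 highest, were far lower: Myh3, the embryonic chain, was at 4.57 TPM and the adult fast chain Myh1 at 6.13 TPM, while Myh4 had 4, 2 and 0 reads. Ckm, the muscle creatine kinase, had 20, 46 and 44 reads. The median over the 28 genes was 6.74 TPM, against 8.44 TPM over all named genes.

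**Figure D1:**
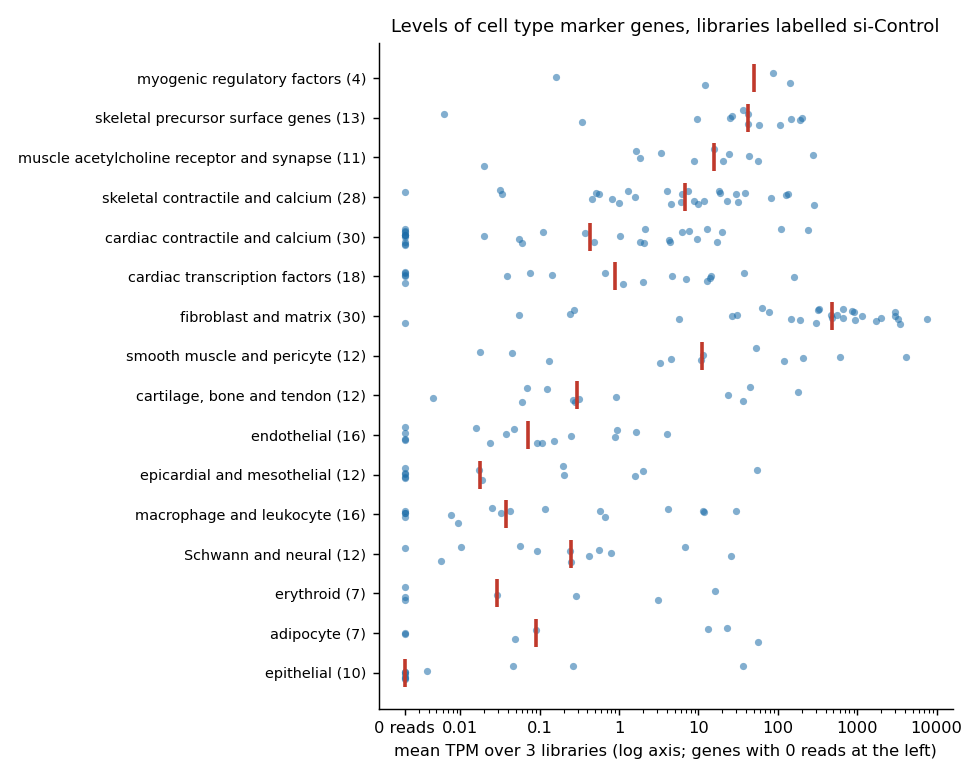
Mean TPM over the 3 libraries labelled si-Control, on a log axis, for each gene of 16 marker lists. Each point is a gene, the red bar is the list's median, numbers in brackets are genes with a row, and genes with 0 reads stand at the left edge. The fibroblast and matrix list lies furthest right with a median of 476 TPM, and the cardiac contractile list, with a median of 0.429 TPM, spreads from 237 TPM down to 10 genes with no reads.

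The cardiac contractile list reached 436 ± 25.2 TPM in sum, but 2 genes made up most of it. Ankrd1, a nuclear and sarcomeric stress-response protein, was at 221, 246 and 246 TPM. Tnnc1, the troponin C of heart and of slow skeletal fibres, was at 104, 103 and 119 TPM, and its gene lies within Nisch on the opposite strand, so that without a stated strand setting its reads are uncertain.
Tnnt2, the gene of the troponin T stained to judge purity (ENSMUSG00000026414, chr1:135836354-135852260), was at 18.2, 20.4 and 20.6 TPM, from 1413, 1568 and 1542 reads, at rank 7116. Its longest annotated transcript has 0 introns, so the exon length used, and with it this TPM and rank, is uncertain. Without any length Tnnt2 was at 42.6 ± 2.97 CPM, against 36.4 ± 3.88 CPM for Myog and 74.2 ± 6.70 CPM for Myod1. Actc1, cardiac alpha-actin, was at 17.1 ± 1.99 TPM and Myom2, a protein of the sarcomere's M-band, at 12.9 ± 1.33 TPM. In each library Acta1 was higher than Actc1.
Many genes that define heart muscle were at or near 0. The cardiac myosin heavy chains Myh6 and Myh7 had 3, 1 and 0 reads and 7, 4 and 3 reads. No read fell on the ventricular and atrial light chains Myl2, Myl3 and Myl7, on the natriuretic peptides Nppa and Nppb, on Mybpc3, on the calcium pump regulator Pln, on the pacemaker channel Hcn4, on the mitochondrial creatine kinase Ckmt2 or on the calcium channel Cacna1c. For these 10 genes 3 reads would have been 0.00478 to 0.172 TPM. Genes on the opposite strand share 61.5% of the Nppa exon bases (Gm13054) and 59.6% of those of Pln (Gm47644). Without a stated strand setting, the counts of Nppa and Pln are therefore uncertain. Tnni3, cardiac troponin I, had 20, 20 and 22 reads.

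Cardiac transcription factors gave a mixed record: 9 of 18 reached 1 CPM, against 61.8% of all rows, and 5 had no reads. Hopx, a small homeodomain protein of heart and other tissues, was the highest at 156, 164 and 163 TPM, and 27.2% of its exon bases also lie in the antisense gene Hopxos. Tbx18, a T-box factor of mesenchyme, was at 37.7 ± 2.80 TPM, the zinc finger factor Gata4 at 14.4 ± 0.785 TPM, its cofactor Zfpm2 at 14.2 ± 0.572 TPM and Nkx2-5 at 13.2, 11.7 and 13.2 TPM, from 227, 200 and 219 reads. Those 5 were not the whole core set. Myocd, Hand1, Hand2, Irx4 and Gata5 had no reads, and of the members below the 5 highest, chosen after their values were seen, Tbx20 had 10, 6 and 11 reads, Tbx5 had 6, 8 and 6, and Mef2c had 8, 5 and 5. Nkx2-5 was lower than Myod1 in every library.

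Among 146 listed regulators of lineage, 134 had a row. Of these, 61 reached 1 CPM, against 61.8% of all rows, and 28 had no reads, against 2390 of all 18951 rows. The highest was Prrx2, a homeobox factor of limb and face mesenchyme, at 249, 237 and 232 TPM. Scx, the tendon factor scleraxis, followed at 179, 185 and 178 TPM. The Scx gene lies within Bop1 on the opposite strand, so its level is uncertain. Hopx was the next. Myod1 and Prrx1 (124.8 ± 3.57 TPM) came below it, and their ranges overlapped.
Then came Hoxc10 at 105 ± 2.70 TPM, Myog, Hoxc11 and Hoxa11, of which the ranges of Myog and Hoxc11 overlapped. From Cebpa, a factor of fat and myeloid cells at 55.7 ± 2.93 TPM, down through Hoxa10, Shox2, Hoxc6, En1, Mkx, Runx1 and Tbx18 to Sox9, the cartilage factor at 36.5 ± 1.61 TPM, the ranges of neighbours in the order overlapped. The order of neighbours within that stretch is therefore not fixed by these 3 libraries, though Cebpa was above Sox9 in each of them.

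**Figure D2:**
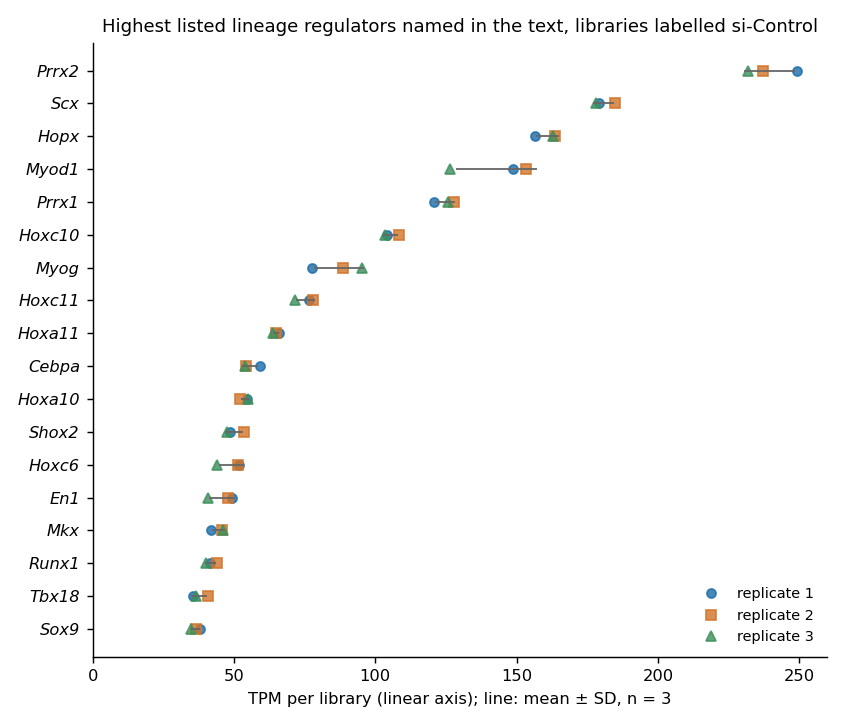
TPM of the regulators of lineage named in the text from among the 20 highest of those listed, in each of the 3 libraries (points) with the mean ± SD as a line, on a linear axis. Prrx2, at 232 to 249 TPM, lies apart from all others, and Myod1 lies between 127 and 153 TPM.

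Of the mesenchyme regulators of limb and trunk, 12 of 20 measured reached 1 CPM, a share near the 61.8% of all rows, and 4 had no reads. After Prrx2 and Prrx1 came the limb homeobox gene Shox2 at 49.9 ± 3.17 TPM, En1, a marker of ventral limb and of dermal and muscle precursors of the trunk, at 45.9 ± 4.58 TPM, and Irx3 at 35.4 ± 1.65 TPM. Twist1, Tcf21, Lmx1b and Dlx5 had no reads. The last 3 are known for epicardium and organ fibroblasts, dorsal limb and bone.

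The Hox genes divided by cluster. All 9 Hoxc genes and 10 of 11 Hoxa genes reached 1 CPM, and none of the 9 Hoxb or 8 Hoxd genes with a row did. Summed levels were 336 ± 12.4 TPM for Hoxc and 223 ± 1.45 TPM for Hoxa, against 0.515 ± 0.114 TPM for Hoxb and 0.571 ± 0.316 TPM for Hoxd. The clusters gave 7472, 7476 and 6753 reads (Hoxc), 6674, 6644 and 6458 (Hoxa), 17, 14 and 14 (Hoxb) and 8, 22 and 11 (Hoxd).
Within the clusters that were on, the members around paralogues 10 and 11, which pattern the posterior trunk and the limb, were the highest. Hoxc10 was at 104, 109 and 104 TPM, Hoxc11 at 76.4, 77.9 and 71.5 TPM, Hoxa11 at 66.1, 64.8 and 63.9 TPM and Hoxa10 at 54.5, 52.3 and 54.99 TPM. Hoxc6 was at 49.0 ± 4.44 TPM. Hoxa9 (ENSMUSG00000038227, chr6:52223100-52231089) was at 25.2, 27.3 and 26.8 TPM, from 1413, 1509 and 1445 reads. The spread between its libraries was small, at an SD of 1.05 TPM.
Hoxa13, the most distal Hoxa gene, was at 5.42 TPM and Hoxc13 at 22.4 TPM, both named after their values were seen. Hoxb1, Hoxb9, Hoxd1, Hoxd4 and Hoxd8 had no reads. Overlapping transcripts are common in these clusters: 35% of the Hoxa11 exon bases lie in the antisense gene Hoxa11os, and Hoxc5 as annotated spans Hoxc6, Hoxc8 and Hoxc9.

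**Figure D3:**
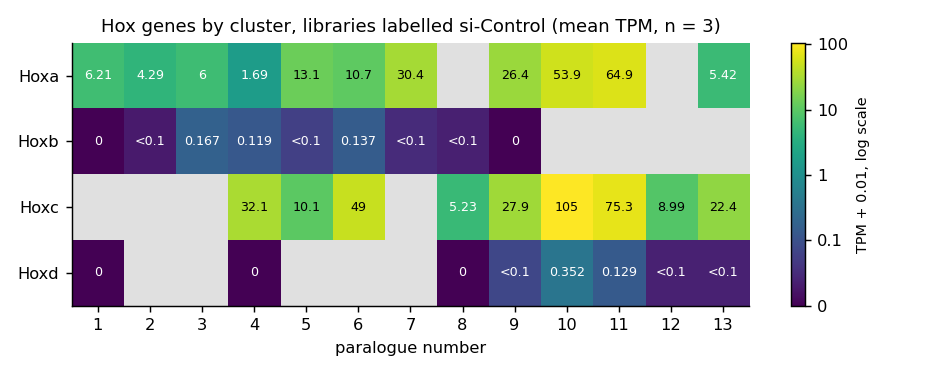
Mean TPM over the 3 libraries for each Hox gene with a row, by cluster (rows) and paralogue number (columns); colour is on a log scale, and grey marks positions with no gene or no row. The Hoxa and Hoxc rows hold values from 1.69 to 105 TPM, and the Hoxb and Hoxd rows stay at or below 0.352 TPM.

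The most abundant transcripts were those of translation, matrix and cytoskeleton. Leaving out the mitochondrial genome, Eef1a1, the translation elongation factor, led at 12086, 12231 and 12586 TPM. Lgals1, the galactose-binding lectin galectin-1, followed at 9776, 9248 and 10115 TPM, and the matrix protein Sparc at 7446, 7731 and 7249 TPM. The ranges of these genes did not overlap, so their order held in each library. The ribosomal protein genes Rplp1, Rplp0, Rps15, Rpl41, Rpl23a and Rpl8 were among the 20 highest, together with Actb, Eef2, Pkm, S100a11 and Gm10260. Ribosomal protein genes and Gm10260 have near-identical copies, and their counts are uncertain.
Matrix genes in the same 20 were Thbs1 (thrombospondin-1) at 4161 ± 177 TPM, Col1a1 at 3495 ± 258 TPM, the collagen chaperone Serpinh1 at 3344 ± 64.2 TPM and Fn1 (fibronectin) at 3235 ± 207 TPM. From the mitochondrial genome, mt-Co1 was at 26765 ± 1234 TPM and mt-Cytb at 13724 ± 789 TPM, followed by mt-Nd1 (6374 TPM), mt-Nd5 (4192 TPM) and mt-Nd4 (3189 TPM). Mitochondrial genes together held 5.80% ± 0.323 of all TPM and 2.19% ± 0.132 of the reads.
The 100 highest genes held 28.4% ± 0.344 of all TPM, and 508 genes held 50 percent. Of those 100, 31 were ribosomal protein genes and 8 came from the fibroblast and matrix list.

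**Figure D4:**
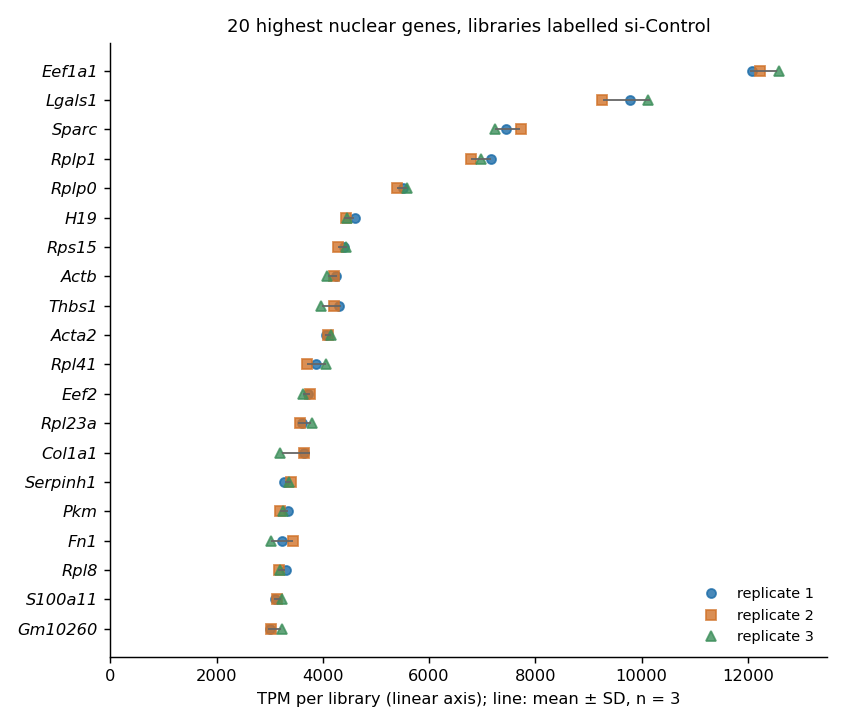
TPM in each of the 3 libraries (points) with the mean ± SD as a line, on a linear axis, for the 20 highest named genes outside the mitochondrial genome. Eef1a1 lies between 12086 and 12586 TPM, and H19 is the only gene of the 20 that encodes no protein.

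H19, an imprinted RNA of fetal tissue and muscle precursors (ENSMUSG00000000031, chr7:142575529-142578143), held rank 9 of all named genes at 4608, 4426 and 4456 TPM, from 113740, 108047 and 106025 reads. It is the host of the microRNA pair printed above. Its imprinted neighbour Igf2, a fetal growth factor, was at 14.0, 15.4 and 12.5 TPM, and 62.8% of its exon bases are shared with the read-through gene Gm49394, so reads may have been lost or split. After H19 the highest long intergenic RNAs were Gm42418 (1669 ± 369 TPM), Gm29233 (695 ± 143 TPM), Gm26619 (309.6 ± 99.0 TPM) and Malat1 (303 ± 16.8 TPM). Gm42418 overlaps ribosomal RNA sequence, Gm29233 lies in part antisense to Thbs1, and Gm26619 shares 541 exon bases with Gm10260 on the opposite strand (96.4% of the exon bases of Gm10260). All 3 are uncertain.
Of 18 imprinted growth genes, 7 reached 1 CPM: besides these, Gnas was at 488 ± 18.2 TPM, Igf2r at 44.5 ± 1.57 TPM and Peg3 at 24.7 ± 1.30 TPM. Of the IGF genes 11 of 12 reached it. The binding proteins Igfbp7 (1047 ± 37.6 TPM), Igfbp5 (738 ± 84.9 TPM), Igfbp2 (680 ± 33.3 TPM), Igfbp3 (674 ± 30.4 TPM) and Igfbp6 (466 ± 12.9 TPM) led, and Igfbp1 had no reads.

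The fibroblast and matrix list was the highest of all, with 26 of 30 genes at 1 CPM, 21 of them above 100 TPM, and 3.22% ± 0.121 of all TPM. Col1a2, which encodes a chain of type I collagen (ENSMUSG00000029661, chr6:4504814-4541544), was at 3026, 3186 and 2865 TPM, from 377283, 392872 and 344290 reads. Replicate 3 was the lowest. The intermediate filament Vim was at 3041 ± 55.9 TPM. The place of Col1a2 among the matrix genes depended on the length used. With the length of the longest transcript it was at 5278 TPM. Without any length it was at 10490 CPM, against 10546 CPM for Fn1, 7902 CPM for Sparc and 6399 CPM for Col1a1.
The list was not complete. Outside the highest 5, and named after their values were seen, the surface marker Thy1 had 5, 0 and 0 reads, Pi16 had 9, 34 and 3 and Fap 18, 13 and 14, while Pdgfra was at 30.9 TPM. The epicardial and fibroblast factor Tcf21 had no reads. How cells that carried muscle regulators and cells that carried matrix genes overlapped cannot be read from whole-culture RNA.

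Smooth muscle genes also stood high in part, with 9 of 12 at 1 CPM. Acta2, smooth muscle actin, was at 4055, 4087 and 4155 TPM, the intermediate filament Des at 611 ± 35.2 TPM, Tagln at 211 ± 9.09 TPM, Smtn at 118 ± 6.80 TPM and Cspg4 at 53.7 ± 3.97 TPM. Antisense annotation covers 62.4% of the Tagln exon bases. The defining myosin Myh11 had 3, 0 and 1 reads.

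Markers of the other cells a heart can hold were low. Endothelial genes reached 1 CPM in 2 of 16 cases, and their sum lay between 7.87 and 8.59 TPM. Eng (4.07 TPM) was the highest, followed by Sox18, Flt1, Plvap and Esam, and Emcn, Tie1, Sox17 and Robo4 had no reads. Leukocyte genes reached it in 4 of 16 cases, with a sum of 55.9 to 63.5 TPM. Of that sum the endotoxin receptor Cd14 made up 29.8 ± 2.02 TPM, followed by Cd74, Lyz2, Cd68 and Csf1r. Adgre1, C1qb, C1qc and Tyrobp had no reads.
The epicardial and mesothelial genes summed to 57.8 to 60.1 TPM, of which Msln alone was 55.03 ± 0.913 TPM. Upk3b, Upk1b, Krt18, Aldh1a2 and Gpm6a had no reads. Schwann and neural genes summed to 31.0 to 37.2 TPM, of which the tubulin Tubb3 was 25.7 ± 2.76 TPM, and Sox10 had no reads. Erythroid genes summed to 16.6 to 23.2 TPM, of which the receptor Epor was 16.3 ± 3.53 TPM, with no reads on Hbb-bs and Hbb-bt. Epithelial genes summed to 35.1 to 39.3 TPM, of which Krt14 was 36.7 ± 2.09 TPM, with no reads on Epcam and Cdh1. In each of these 4 lists a single gene held most of the sum.
Among genes of tendon, cartilage and bone, 4 of 12 reached 1 CPM, and all 4 were transcription factors: Scx, Mkx, Sox9 and Runx2 (23.3 ± 0.562 TPM). Structural genes of those tissues were near 0, with Acan at 1 read and Col2a1 at 28, 40 and 19, chosen after their values were seen. Of the fat genes, Cebpa, Lpl (22.9 ± 0.244 TPM) and Pparg (13.1 ± 0.434 TPM) reached it, and Plin1 and Cd36 had no reads. Of 42 measured regulators of other lineages, 13 reached 1 CPM, against 61.8% of all rows. No reads fell on 12 of them, against 2390 of all 18951 rows.

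The cultures carried genes of dividing cells. All 20 mitosis genes reached 1 CPM, with a sum of 2196, 2160 and 2189 TPM. Cdc20, the activator of the anaphase-promoting complex, was at 281 ± 16.8 TPM, Ccnb2 at 225 ± 4.38 TPM, Top2a at 165 ± 2.78 TPM, the proliferation marker Mki67 at 164 ± 2.86 TPM and Ccna2 at 147 ± 2.33 TPM. Inhibitors of cyclin-dependent kinases, which hold the cycle in check, were present too. Cdkn1a was at 380, 351 and 352 TPM, Cdkn2d at 104 ± 4.33 TPM, Cdkn2c at 82.7 ± 1.26 TPM and Cdkn1b at 78.2 ± 3.95 TPM, and the G1 cyclin Ccnd1 was at 225 ± 6.15 TPM. Cdkn2a and Cdkn2b had no reads.
Of the Notch and ID genes, which hold back differentiation, 11 of 15 reached 1 CPM, against 61.8% of all rows. Id3 led at 181, 148 and 151 TPM with replicate 1 the highest, followed by Notch2 at 102 ± 3.33 TPM, Id1 at 49.2 ± 4.03 TPM, Hes1 at 45.3 ± 0.785 TPM and Notch3 at 36.3 ± 0.701 TPM.

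The 3 libraries were alike but did not hold the same counts. Chi-square per degree of freedom was 4.52 between replicates 1 and 2, 7.05 between 1 and 3 and 6.80 between 2 and 3, where 1 would be counting noise alone. No pair lay within that noise, and each was taken as 1 sample, as the labels list it. These values do not show whether the samples came from separate cultures. The common biological coefficient of variation, the spread beyond counting error, was 0.0509 over 12629 genes (edgeR). Over the 9500 genes that averaged 10 CPM or more, the SD had a median of 4.23% of the mean, with the middle of the genes between 2.69% and 6.21% (25th and 75th percentiles). Replicate 3 was the farthest from the mean of the 3 for 3865 genes (40.7%), against 2957 for replicate 1 and 2678 for replicate 2.
The genes with the largest fitted coefficient of variation were Mfap1b, Gm17275, Gm9747, Gm26882, Isg15, Crlf2, Omd, Ap5b1, Hfe and Alox5ap, all close to the 10 CPM limit. Because edgeR draws each gene towards its neighbours in abundance, the lower members of that list had an SD of as little as 11.2% of the mean. Mfap1b, a splicing protein gene with the near-identical copy Mfap1a, was at 8.79, 8.09 and 21.5 CPM. Gm17275, a long intergenic RNA, was at 10.5, 6.72 and 19.7 CPM. In both, replicate 3 alone was high. By SD as a percentage of the mean, the 5 largest also held Gm26825 (43.0% at 40.7 CPM) and 1810014B01Rik (36.4% at 25.4 CPM). These were outside the fitted list and were named after their values were seen. Replicate 3 was the highest library for each.
Gene groups moved by little. For 10 of 11 mesenchyme regulators and 5 of 5 upstream muscle regulators at 10 CPM or more, replicate 3 was the lowest, against 3518 of the 9500 genes (37.0%). Their medians in replicate 3 were -0.05 and -0.08 (log2 CPM relative to the mean of the 3). Both lists were named after their values were seen, for their large shares. Other lists lay near the share of all genes: Hox genes were lowest in replicate 3 in 4 of 11 cases and skeletal contractile genes in 4 of 10. The fibroblast and matrix genes were lowest there in 17 of 25 cases. The mitosis genes were highest there in 11 of 20 cases, against 3418 of all 9500.

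**Figure D5:**
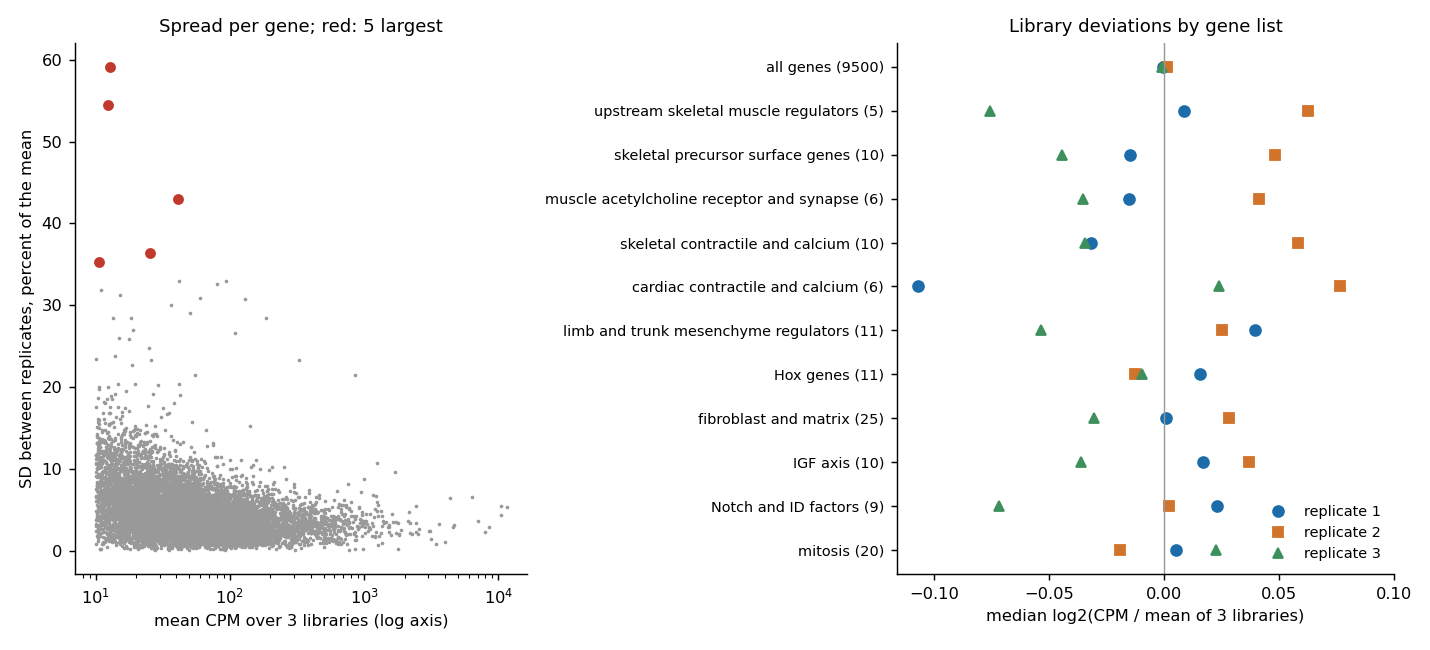
Left, SD between the 3 libraries as a percentage of the mean, against mean CPM on a log axis, for 9500 genes (grey), with the 5 largest in red. Right, median log2 ratio of each library to the mean of the 3, for all genes and for 11 lists, with the number of genes at 10 CPM or more in brackets; replicate 3 is at -0.08 for the upstream muscle regulators and near 0 for all genes.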

How the data were processed

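The authors deposited whole-number read counts per Ensembl gene, not normalized by them. Per the submitters' processing notes, fastp, HISAT2, HTSeq, DESeq2 and GRCm38 were used. Which versions, settings, annotation release and strand setting applied is not given in the sources used here. Thus antisense, overlapping and near-identical genes have uncertain counts. Each row had at least 1 read in at least 1 of the 6 libraries of the series.

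Levels and spread were computed from the si-Control columns only, and the other columns were read for the row totals alone. Names, positions and exon lengths came from GENCODE M21 (GRCm38), with 18868 of 18951 rows matched. The 83 others held 0.00941% of the reads. TPM and CPM were computed in Python 3.11.15 with pandas 2.3.3, and spread with edgeR 4.0.16 in R 4.3.3 (TMM, filterByExpr, intercept only), which was tested on simulated data. RefSeq tables (GRCm38.p6) gave promoters and microRNAs. Depth was 34269042 to 35955301 reads, and 3 reads were 0.0834 to 0.0875 CPM in a library.

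No test was made. The members and the 29 gene lists were chosen with earlier results of these data known. Genes named are the 6 markers given, the 20 highest genes and regulators, the 5 highest of each list, of the mitochondrial genome and of the lincRNAs, the 10 most variable, and listed genes at 0 reads. Some genes that this rule names are not reported here. Others are marked as chosen after their values were seen. Alternatives were other exon lengths, detection limits, scalings and filters, the mitochondrial genome left out, and each library left out.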

Additional observations from a re-analysis of the deposited data

How the results depend on the processing

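No paired analysis was possible because the libraries form a single group and no result comes from a test. Of the 100 highest genes by TPM, 59 were shared with the 100 highest by CPM with TMM scaling and no length. Those 100 held 27.8% of TPM with the length of the longest transcript, 24.8% without the mitochondrial genome and 20.99% of reads. Under these alternatives in the same order, skeletal contractile genes held 0.0759%, 0.0909% and 0.0436% (0.0856% in the report), and the fibroblast and matrix list 3.61%, 3.42% and 6.02%. Cardiac contractile genes held 0.0472% with the longest transcript and 0.0463% without the mitochondrial genome, against 0.0436%. The ratio of skeletal to cardiac contractile sums was 1.96 by TPM, 1.61 with the longest transcript and 1.05 by reads, so its size depends on the length correction. Genes detected ranged from 10318 (5 CPM) to 12214 (0.5 CPM). The common coefficient of variation was 0.0419 to 0.0558 with a library left out, lowest without replicate 3. With a library left out, the 29 list sums were 0.910 to 1.08 times those of all 3. A limit of 1 SD cannot judge these shifts, because leaving out 1 of 3 libraries always moves the mean by less. Depth limits genes with 0 reads to the floor given, and the number of libraries limits every SD.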

Other observations

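Several runs of genes had no reads, and were looked at after their values were seen. On chromosome 4, Cdkn2a and Cdkn2b, which encode cell cycle inhibitors, and the next genes with a row, Dmrta1, Elavl2 and Izumo3, had 0 reads in all 3 libraries. On one side of the run Mtap had 3898, 3878 and 3869 reads (121.9 ± 1.90 TPM) and the lincRNA Gm12606 had 2, 4 and 1 reads. On the other, Gm12666 had 154, 130 and 138. For Cdkn2a, 3 reads over the pooled libraries would have been 0.0864 TPM. Whether these genes were silent or missing was not tested, since read counts per gene do not tell them apart.

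On chromosome 12, every gene with a row from Dlk1 to Dio3 (Dlk1, Meg3, Rtl1, Rian, Gm26945, B830012L14Rik, Mirg and Dio3) had 0 reads. The neighbours outside the imprinted run were present: Begain had 45, 42 and 43 reads, and Ppp2r5c was at 46.4 ± 1.67 TPM. H19, another imprinted RNA, was at 4497 ± 97.6 TPM in the same libraries.

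Xist, the RNA that coats the inactive X chromosome in female cells, was at 195, 215 and 205 TPM, with 11% of its exon bases shared with the antisense gene Tsix. The Y-linked genes Ddx3y, Uty, Eif2s3y and Kdm5d had 0 reads in each library. The sex of the pups is not among the labels used here. Gm47283, the only Y-chromosome row above 1 read in all, had 324, 564 and 531 reads and has near-identical copies elsewhere, so its reads are uncertain.

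Ifi202b, an interferon-induced gene that C57BL/6 mice are known not to express, had 2549, 2665 and 2549 reads, or 150, 158 and 155 TPM. It has closely related genes nearby, so its count is uncertain. Nnt, which carries a deletion of several exons in C57BL/6J, was at 35.6 ± 1.24 TPM, and a count over the whole gene does not check that deletion.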
